A study of Mus musculus with 2 samples.

Results

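The Il10 family cytokine cluster is a run of neighbouring genes on mouse chromosome 1 that holds Il24, Il20, Il19 and Il10, followed by the kinase gene Mapkapk2. Accessible regions were taken from 20 kb before the first to 20 kb past the last of these 5 genes, DNA between them included, which on GRCm38 (mm10) is chr1:130862074-131117826, 255.753 kb. The interval held 28 of the 68903 deposited regions in replicate 1 and 35 of the 78262 in replicate 2, a mean of 31.5 ± 4.95 (SD, n = 2). It also takes in Fcmr, which encodes the Fc receptor for IgM and lies beside Il24.

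The study profiled open chromatin by ATAC-seq, in which a transposase cuts accessible DNA and tags it for sequencing, in primary regulatory T cells of mouse strain C57BL/6NJ. There was 1 group of 2 libraries, with no genotype, treatment or second cell type to set against it, so the values below are descriptions and no test was made. Both libraries carry 1 donor identifier, and the spread between them may be technical; sex was not collected and age is given as unknown. The labels link a CD4 T cell differentiation protocol, and the entry names in the deposited lists hold 72 hours and 2 further words, ASTARR and insert, that no source used here explains.

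Interleukin-10 is a cytokine that restrains inflammatory responses, and regulatory T cells are one of its known sources. Interleukins 19, 20 and 24 belong to the same family by sequence, but they signal through the interleukin-20 receptors, which are best known on epithelial cells such as keratinocytes. MK2, the product of Mapkapk2, is a kinase downstream of p38 that stabilises cytokine messenger RNAs by phosphorylating the RNA-binding protein tristetraprolin, encoded by Zfp36. In ATAC-seq, open sites away from gene starts often mark enhancers or sites bound by CTCF, but a region alone does not tell which gene, if any, it acts on.

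Each region is called here by the distance of its summit in replicate 2 from the Il10 start site at position 131019845. Negative values lie towards Il19, and positive values towards Mapkapk2. Signal and -log10 q are the authors' own values per region. The scale of signal is not stated, so ranks within each library's list are given as percentiles (0 lowest, 100 highest). In a bulk sample, a site open in more cells and a site more often open in each cell cannot be told apart.

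The sequences below reach 100 bases to each side of the replicate 2 summit of 10 regions. These regions have the highest signal or -log10 q, lie in a listed gene, or hold some of the motif matches described later. The sequences are read 5′ to 3′ on the plus strand of RefSeq GRCm38.p6. Capitals mark consensus matches on either strand for AP-1 (TGANTCA), RUNX (TGNGGT), NF-kB, CTCF and the AP-1 with IRF composite element. In the -9.2 kb sequence the first run of capitals is the composite, which opens with an AP-1 match, and the second run is a RUNX match.
-139.8 kb, Fcmr intron 7, chr1:130879897-130880097: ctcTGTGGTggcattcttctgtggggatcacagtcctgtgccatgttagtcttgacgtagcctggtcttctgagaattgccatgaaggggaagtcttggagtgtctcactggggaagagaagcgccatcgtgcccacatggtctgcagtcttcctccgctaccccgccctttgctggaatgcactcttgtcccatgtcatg
-133.2 kb, Il24 intron 1, chr1:130886544-130886744: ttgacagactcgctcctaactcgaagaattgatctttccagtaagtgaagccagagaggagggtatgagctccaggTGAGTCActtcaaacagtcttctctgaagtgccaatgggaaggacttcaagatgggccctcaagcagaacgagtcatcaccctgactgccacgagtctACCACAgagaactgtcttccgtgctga
-40.1 kb, chr1:130979598-130979798: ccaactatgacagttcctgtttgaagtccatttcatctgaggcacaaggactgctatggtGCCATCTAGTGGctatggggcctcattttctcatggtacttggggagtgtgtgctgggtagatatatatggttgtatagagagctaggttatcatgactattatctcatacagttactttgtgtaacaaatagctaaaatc
-25.9 kb, chr1:130993887-130994087: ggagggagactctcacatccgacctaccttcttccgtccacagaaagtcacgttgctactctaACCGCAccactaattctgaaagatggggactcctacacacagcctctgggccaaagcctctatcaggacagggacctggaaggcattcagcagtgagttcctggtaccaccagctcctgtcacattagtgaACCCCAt
-20.0 kb, chr1:130999742-130999942: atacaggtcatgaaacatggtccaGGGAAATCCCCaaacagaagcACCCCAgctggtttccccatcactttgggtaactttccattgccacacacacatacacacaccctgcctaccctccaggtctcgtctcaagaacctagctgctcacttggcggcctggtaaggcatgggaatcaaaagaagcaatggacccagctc
-9.2 kb, chr1:131010554-131010754: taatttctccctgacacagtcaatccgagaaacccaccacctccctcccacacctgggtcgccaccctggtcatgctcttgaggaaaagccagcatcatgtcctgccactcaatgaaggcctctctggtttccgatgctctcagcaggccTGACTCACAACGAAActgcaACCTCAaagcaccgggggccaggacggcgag
+1.9 kb, Il10 intron 3, chr1:131021612-131021812: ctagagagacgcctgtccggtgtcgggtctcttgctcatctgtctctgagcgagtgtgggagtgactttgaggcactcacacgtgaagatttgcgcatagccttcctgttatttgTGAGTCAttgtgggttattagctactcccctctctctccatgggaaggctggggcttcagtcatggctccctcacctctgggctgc
+18.5 kb, chr1:131038231-131038431: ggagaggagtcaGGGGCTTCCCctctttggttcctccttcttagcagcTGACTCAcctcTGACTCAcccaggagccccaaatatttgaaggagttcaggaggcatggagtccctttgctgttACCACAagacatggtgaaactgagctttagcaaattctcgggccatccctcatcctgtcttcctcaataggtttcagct
+61.1 kb, Mapkapk2 intron 1, chr1:131080816-131081016: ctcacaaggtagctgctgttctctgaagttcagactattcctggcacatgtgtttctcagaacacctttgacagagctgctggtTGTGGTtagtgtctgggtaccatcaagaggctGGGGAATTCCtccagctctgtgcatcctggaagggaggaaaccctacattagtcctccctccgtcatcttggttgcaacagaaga
+77.1 kb, Mapkapk2 start region, chr1:131096855-131097055: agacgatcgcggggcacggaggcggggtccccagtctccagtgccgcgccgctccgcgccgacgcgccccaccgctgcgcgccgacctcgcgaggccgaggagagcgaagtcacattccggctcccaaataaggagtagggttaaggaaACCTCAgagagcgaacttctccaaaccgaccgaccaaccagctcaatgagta

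Open sites were dense over the cluster as a whole, though not in every stretch of it, and most recurred in both libraries. All 28 regions of replicate 1 were overlapped by a region of replicate 2, against 93.2% of all replicate 1 regions. In replicate 2, 29 of 35 were overlapped by replicate 1, or 82.9%, against 81.6% of all its regions. Together the lists gave 34 separate sites, 28 of them in both libraries and 6 in replicate 2 only. The 6 single sites were all weak, with signal from 1.69 to 2.70, -log10 q from 1.73 to 9.49 and widths from 210 to 352 bp.

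Density was 10.9 regions per 100 kb of the cluster in replicate 1, against 2.60 over the genome, a ratio of 4.21. In replicate 2 it was 13.7 per 100 kb, against 2.95 over the genome, a ratio of 4.63. Of 10219 genomic windows of the same length laid end to end, 97.7% held fewer regions in replicate 1 and 99.0% in replicate 2, and the median window held 3 in both. The interval has 6 protein-coding gene starts, and regions gather near gene starts. Among 1618 windows with 4 to 8 such starts the median was 13 regions in replicate 1 and 15 in replicate 2, and 95.4% and 98.2% of these windows held fewer than the cluster.

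**Figure D1:**
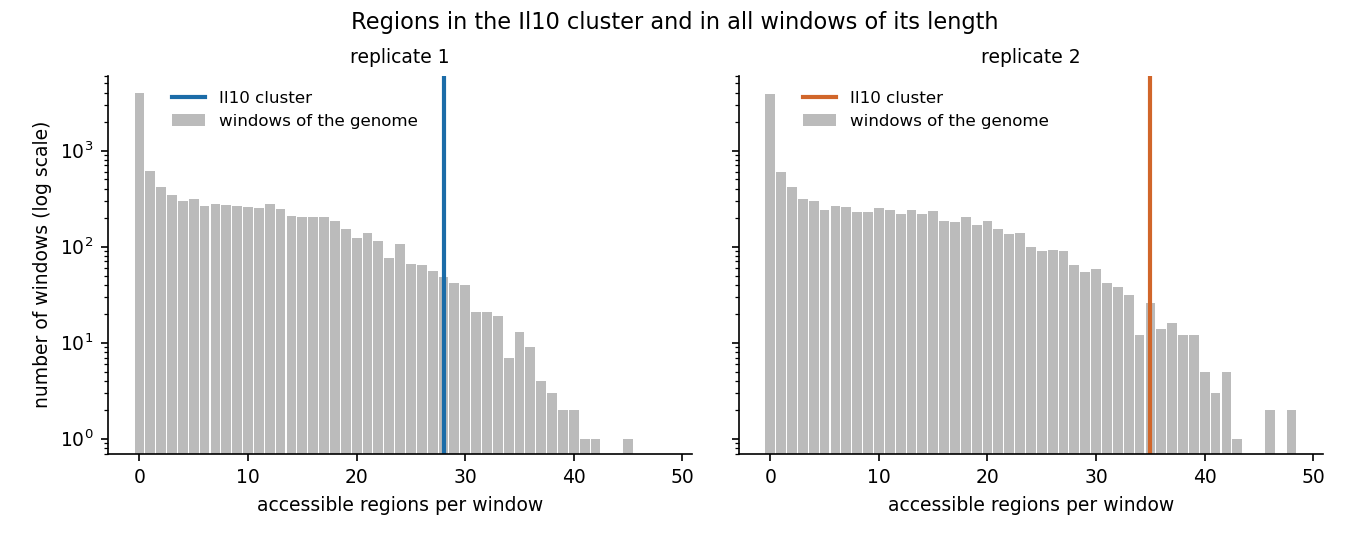
Grey bars count the genomic windows of the cluster's length (vertical axis, log scale) by the number of accessible regions they hold (horizontal axis), in replicate 1 (left) and replicate 2 (right). The vertical line is the Il10 cluster, at 28 regions in replicate 1 and 35 in replicate 2, in the upper tail of both distributions.

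Regions covered 9.28% of the cluster in replicate 1, against 1.88% of the genome, and 10.2% in replicate 2, against 2.15%. The other cytokine loci cut out by the same rule were also dense. The T helper 2 cluster (Il5, Rad50, Il13 and Il4) held 11.1 and 12.3 regions per 100 kb in replicates 1 and 2. The locus of Il2 and Il21 held 8.55 and 10.5 per 100 kb. The Il10 cluster was the densest of the 3 loci in replicate 2 and lay between the other two in replicate 1.

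The regions were close to the middle of the lists by signal and above it by -log10 q. Their median signal percentile was 55.7 in replicate 1 and 58.6 in replicate 2, and their median -log10 q percentile 69.3 and 64.3. Median width was 734 bp against 632 bp over all regions in replicate 1, and 687 bp against 635 bp in replicate 2. Base composition was near that of the lists, with a median GC content of 48.1% against 48.5% in replicate 1 and 47.9% against 48.1% in replicate 2.

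**Figure D2:**
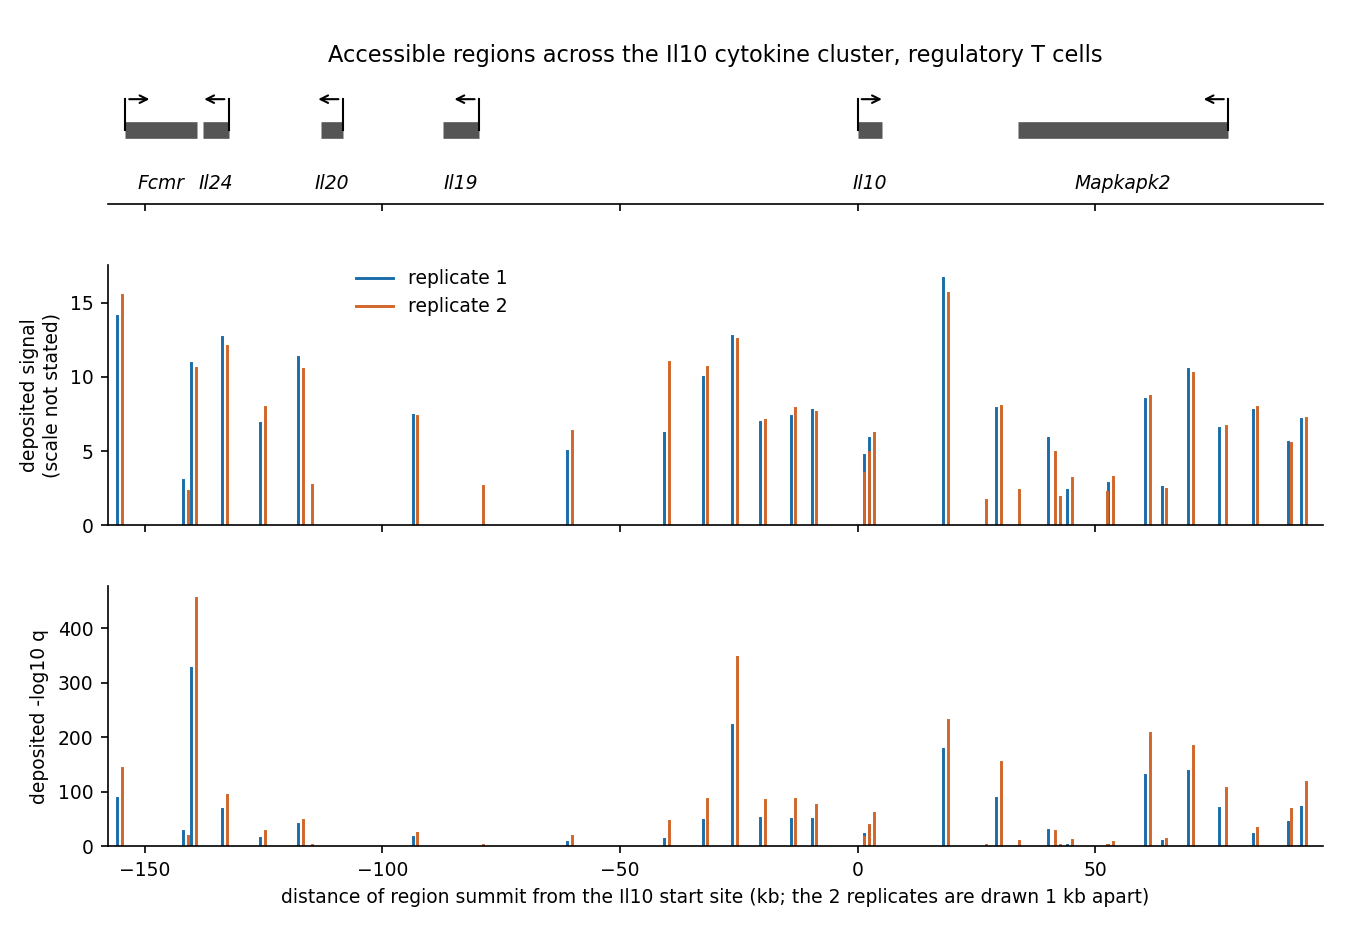
Genes of the interval (top, bars with arrows from their start sites), deposited signal (middle, scale not stated) and deposited -log10 q (bottom) of each region by distance of its summit from the Il10 start site in kb, replicate 1 in blue and replicate 2 in orange. The Il20 and Il19 gene bodies hold no bar, the highest signal is at +18.5 kb (16.7 and 15.6), and the highest -log10 q is at -139.8 kb (327 and 455).

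At the start sites themselves the 5 genes differed. A promoter was counted as open where any annotated start site had a region within 1 kb. Il10, Il24 and Mapkapk2 met this in both replicates, which is 3 of 5 genes beside 64.4% of 21911 protein-coding genes. Il19 met it in replicate 2 only, and Il20 in neither.

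For Il10 the region lay inside the gene and not over its start. In replicate 1 a single region of 1669 bp began 741 bp downstream of the start site, with signal 4.71 and -log10 q 22.5. In replicate 2 the same stretch was split in 2, the nearer part beginning 703 bp downstream with signal 3.52 and -log10 q 17.9. By signal the region nearest to the start was in the lower part of its list, at percentiles 30.1 and 20.2.

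On the other side the nearest region ended 8.88 kb upstream of the Il10 start in replicate 1 and 8.52 kb upstream in replicate 2. The start site was thus inside a region-free stretch of 9.62 kb in replicate 1 and 9.22 kb in replicate 2. Depth is unknown, so the lack of a called region does not show that the start was closed. Among 14106 genes with a promoter region in both replicates, 93.5% had a start site inside a region in both, and Il10 was among the rest. With a promoter window of 0.5 kb Il10 was no longer counted, which left Il24 and Mapkapk2.

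Inside Il10, 46.6% of the 5.13 kb gene was covered by regions in replicate 1 and 42.9% in replicate 2. The further part of the split region, at +1.9 kb with its summit in intron 3, had signal 4.94 and -log10 q 38.7 in replicate 2. A second site at +3.0 kb in intron 4 had its summit at the same base in both libraries, with signal 5.85 and 6.24 and -log10 q 34.9 and 61.1. None of these summits was in an Il10 exon.

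The 79.7 kb between Il19 and Il10, as placed by GENCODE, contains no further GENCODE protein-coding gene and held 7 sites found in both libraries. They lay at -60.7, -40.1, -32.1, -25.9, -20.0, -13.6 and -9.2 kb. From -40.1 kb to -9.2 kb, neighbouring summits were 4.40 to 8.05 kb apart. The RefSeq long non-coding gene Gm41952, in the same stretch, held no region. In RefSeq, Il19 itself extends into this stretch, to position 130945457.

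The -25.9 kb site was the strongest of these. It had signal 12.8 and 12.5 in replicates 1 and 2 and -log10 q 223 and 347, at -log10 q percentiles 96.0 and 97.0. Its summits differed by 3 bp. The -32.1 kb site had signal 9.97 and 10.7 in replicates 1 and 2 and -log10 q 49.2 and 87.0.

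The 3 sites nearest to the Il10 start on this side were alike in rank. The -20.0 kb site had signal 6.97 and 7.12 in replicates 1 and 2 and was the widest of the 7, at 1717 and 1273 bp. The -13.6 kb site had signal 7.38 and 7.93, and the -9.2 kb site 7.75 and 7.66. Their -log10 q values ranged from 49.4 to 51.9 in replicate 1 and from 75.3 to 87.7 in replicate 2, so the 3 sites were close together within each library.

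In replicate 1 the far end of the gap was weaker. At -60.7 kb, signal was 5.01 and 6.34 in replicates 1 and 2 and -log10 q 8.41 and 18.2. At -40.1 kb the libraries differed most of all matched sites by signal, with 6.21 in replicate 1 and 11.01 in replicate 2, and -log10 q of 12.7 and 46.4. This is the site that holds the CTCF consensus (capitals in its sequence above), the insulator protein's motif.

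Past Il10, the site at +18.5 kb had the highest signal of the whole cluster. Its signal was 16.7 in replicate 1 and 15.6 in replicate 2, at percentiles 98.4 and 96.8, and its -log10 q was 178 and 232. The summit fell on the same base in both libraries. This intergenic site lies in the 28.7 kb between Il10 and the 3′ end of Mapkapk2, which is transcribed towards Il10.

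The same stretch held a second replicated site at +29.6 kb, with signal 7.89 and 8.04 in replicates 1 and 2 and -log10 q 89.2 and 155. Replicate 2 alone had weak regions at +26.4 kb (signal 1.69) and +33.6 kb (signal 2.38), the second of them just past the 3′ end of Mapkapk2. No region of replicate 1 overlapped either.

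Mapkapk2 was the one of the 5 listed genes with a start site inside a region. Its start lay inside a region of 2443 bp in replicate 1 and 2409 bp in replicate 2, the widest of the cluster in each. That region had signal 6.55 and 6.66 and -log10 q 71.1 and 108. Its GC content was 58.4% in both, and its ratio of observed to expected CpG was 0.74 and 0.75, against medians of 0.19 and 0.21 over the cluster's regions. The only other region of the cluster with such a ratio was the one at -141.5 kb in Fcmr, at 0.71 and 0.78.

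All 7 summits of replicate 1 and 9 of replicate 2 within Mapkapk2 were in intron 1. The strongest were at +61.1 kb and +70.1 kb. The first had signal 8.51 and 8.68 in replicates 1 and 2 and -log10 q 131 and 208, and the second had signal 10.5 and 10.3 and -log10 q 139 and 184. The +70.1 kb site also lies in Gm37084, an unclassified transcript annotated within that intron. The small non-coding genes Gm25549, in the same intron, and Gm25717, upstream of Mapkapk2, held no region.

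The remaining sites of the intron were weaker. At +41.0 kb, signal was 5.90 and 4.91 in replicates 1 and 2, and the summits were 380 bp apart. The sites at +44.6, +53.2 and +64.5 kb had signal between 2.39 and 3.27 over both libraries. Of these, the +53.2 kb site lay 181 bp in replicate 1 and 86 bp in replicate 2 upstream of a second annotated Mapkapk2 start at position 131072526. A pair of the single sites, at +42.2 and +52.1 kb, was also in this intron, with signal 1.89 and 2.26 in replicate 2.

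Upstream of Mapkapk2 there were 3 sites in both libraries, at +83.7, +90.8 and +93.9 kb. Signal at +83.7 kb was 7.76 and 8.00 in replicates 1 and 2, at +90.8 kb 5.64 and 5.56, and at +93.9 kb 7.14 and 7.26. The last lies in the RefSeq long non-coding gene Gm51643. All 3 were near the middle of their lists by signal.

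Of the 3 cytokines that use the interleukin-20 receptors, Il24 held a strong site and Il20 and Il19 held none. A site at -133.2 kb, in intron 1 of Il24, had signal 12.7 and 12.1 in replicates 1 and 2 and -log10 q 68.1 and 93.5. Its summit was 0.785 and 0.81 kb downstream of the outermost of 4 annotated start sites, and the region itself stopped 0.504 and 0.405 kb short of that start. The nearest annotated start of Il24 was position 130885996 in replicate 1, 323 bp from the region, and position 130887339 in replicate 2, 290 bp away. These are different starts, on opposite sides of the region, so here too no start site was covered.

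Il20 had no region in its body in either library, and the nearest was 8.36 kb from a start site in replicate 1 and 6.82 kb in replicate 2. Il19 also had none within its GENCODE body. In replicate 2 a weak region at -79.4 kb lay 358 bp upstream of the Il19 start, with signal 2.67 and -log10 q 2.40. In RefSeq, where Il19 extends further upstream, that region is inside the gene.

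Between these genes the sites were of middle to high signal. At -125.1 kb signal was 6.92 and 7.97 in replicates 1 and 2, and at -117.2 kb it was 11.3 and 10.5. The single region between Il20 and Il19, at -93.2 kb, had signal 7.40 and 7.34. A weak region at -115.4 kb was in replicate 2 only, with signal 2.70. The DNA between Il20 and Il19 was 1.33% covered in replicate 1 and 1.22% in replicate 2, against 1.88% and 2.15% of the genome. The widest stretch without a replicated site was 32.2 kb, from -93.2 kb across Il19 to -60.7 kb.

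The start sites also differed in CpG content. In the RefSeq table of promoters (GRCm38.p6), 4 of the 6 protein-coding genes of the interval were matched: Mapkapk2, Fcmr, Il20 and Il19, and not Il10 or Il24. Over the 250 bases before the start, Mapkapk2 had 9 CpG, Fcmr 4, Il20 2 and Il19 1, against a median of 6 over 32851 promoters. The one of these 4 windows that a region overlapped, in both libraries, was that of Mapkapk2. For Fcmr the window is that of its RefSeq start, not of the inner start described below.

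Fcmr, at the other end, carried the site with the highest -log10 q of the cluster. The site at -139.8 kb, in Fcmr intron 7, had -log10 q 327 and 455 in replicates 1 and 2, at percentiles 99.0 and 98.9, and signal 10.95 and 10.6. A site at -155.4 kb, 1.2 kb upstream of the outermost Fcmr start, had signal 14.1 and 15.5, the second highest of the cluster. The third, at -141.5 kb, had low signal, 3.08 and 2.32, and covered an inner annotated Fcmr start at position 130878331 in both libraries. Its summit was 22 and 24 bp downstream of that start, in an exon of a secondary transcript. This was the cluster's only summit in an exon of a protein-coding gene, 1 of 28 in replicate 1 (3.57%) and 1 of 35 in replicate 2 (2.86%), against 13.8% and 13.1% of all regions.

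**Figure D3:**
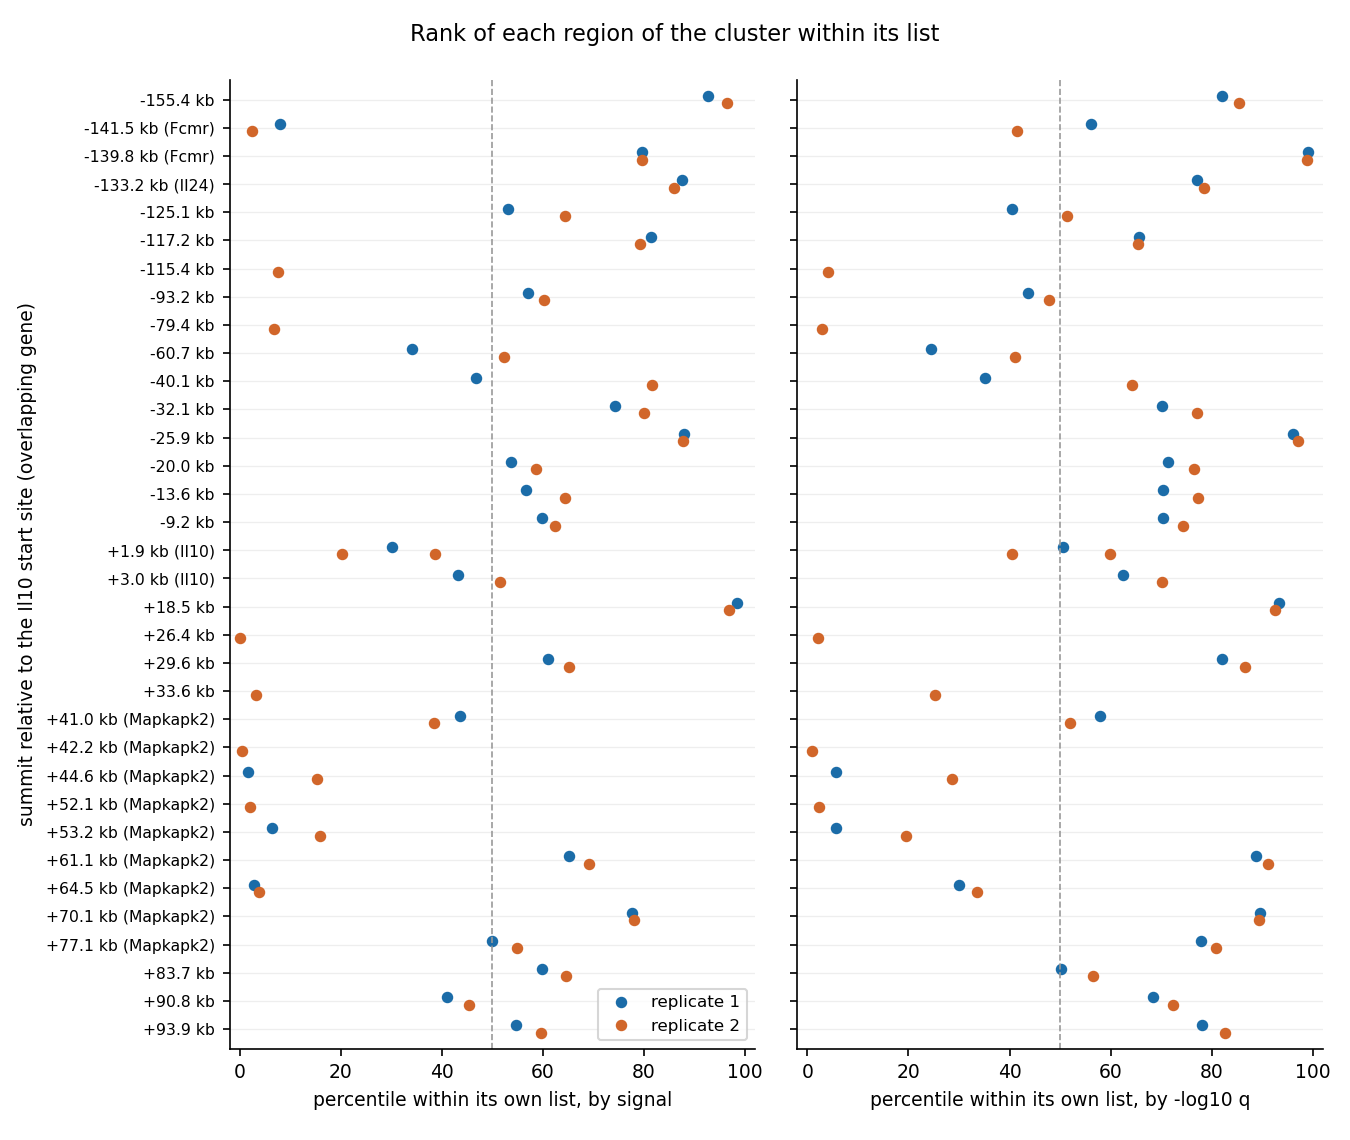
Percentile of each region within its own library's list, by signal (left) and by -log10 q (right), in genomic order from top to bottom with replicate 1 in blue and replicate 2 in orange; the dashed line is the list's middle. Sites at -155.4 and +18.5 kb are highest by signal, those at -139.8 and -25.9 kb highest by -log10 q, and the 6 sites without a blue point lie at or below the 7.67 percentile by signal.

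By place, 57.1% of the cluster's summits were intergenic in both replicates, against 42.0% of all summits in replicate 1 and 41.8% in replicate 2. Distal regions, with the summit over 1 kb from every protein-coding start site, numbered 25 of 28 in replicate 1 (89.3%, against 77.1% of all). In replicate 2 they numbered 28 of 35 (80%, against 79.1%). By this summit rule the excess over the lists was seen in replicate 1 and was small in replicate 2. The Il10 and Mapkapk2 promoter regions counted as distal in replicate 1, with summits 1786 and 1287 bp downstream of the start. In replicate 2 the region nearest to the Il10 start and the Mapkapk2 start region did not, with summits 814 and 871 bp downstream. The library difference thus rests in part on where these summits were placed.

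Matched sites of the libraries had similar values. For the 27 sites with 1 region in each library, the ratio of replicate 2 to replicate 1 signal had a median of 1.02, with a range from 0.754 at -141.5 kb to 1.77 at -40.1 kb, beside a median of 1.01 over all 62331 such pairs. The ratio of -log10 q had a median of 1.56, against 1.47 over all pairs, and was over 1 at 25 of 27 sites, against 89.4% of all pairs. Spearman's rho across the 27 sites was 0.91 for signal and 0.98 for -log10 q, as a description over sites that share the same 2 libraries. The median distance between summits was 19 bp, as over all pairs.

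RUNX proteins are DNA-binding factors with known roles in T cells, and their consensus was the most frequent in the cluster. It stood within 100 bp of the summit in 20 of 28 regions of replicate 1 (71.4%, against 41.1% of all regions) and 20 of 35 of replicate 2 (57.1%, against 41.4%). Of the 28 sites in both libraries, 18 held it in both. Among the distal regions, by summit as above, the shares were 76.0% against 43.8% in replicate 1 and 60.7% against 43.8% in replicate 2. With C or T alone at the third base, closer to the usual RUNX letters and chosen after the data were seen, the shares were 53.6% against 23.3% in replicate 1 and 40% against 23.4% in replicate 2.

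Matches of AP-1, the Jun and Fos dimer, were no more frequent than elsewhere, at 17.9% against 18.3% in replicate 1 and 20% against 19.6% in replicate 2. They stood at sites of different kinds. In both libraries these were the Il24 intron 1 site and the sites at -125.1, -117.2, -9.2 and +18.5 kb. The -117.2 and +18.5 kb sites each hold a pair of them. In replicate 2 the Il10 intron 1 and intron 3 summits also had a match. The composite of AP-1 with IRF, the element bound by BATF and IRF4 together, was found at -9.2 kb alone, 3.57% of the cluster's regions against 1.43% of all in replicate 1 and 2.86% against 1.52% in replicate 2. An NF-kB match in both libraries stood at -20.0, +18.5 and +61.1 kb, and the shares were 14.3% against 6.34% in replicate 1 and 8.57% against 6.34% in replicate 2. A CTCF match stood at -40.1 kb alone, 3.57% against 4.98% in replicate 1 and 2.86% against 4.86% in replicate 2. The composite, NF-kB and CTCF shares had 1 to 4 regions behind each, and AP-1 had 5 and 7 in replicates 1 and 2. These shares show little beyond where the letters stand.

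The nuclear receptor half-site (AGGTCA) was in 7 regions of the cluster in replicate 1, or 25.0% against 13.7% of all. In replicate 2 it was in 8 regions, or 22.9% against 13.7%. Of the 28 sites in both libraries, 5 held it in both. The SP letters (GGGCGG), common at CpG-rich promoters, were in 3.57% against 17.1% in replicate 1 and in 2.86% against 15.5% in replicate 2. The SP share had 1 region behind it in each library, so both motifs rest on few regions. Among the distal regions, by summit as above, the SP shares were closer, 4% against 7.01% in replicate 1 and 3.57% against 6.61% in replicate 2. Over all 21 consensus motifs, a region of the cluster held a mean of 2.46 motifs in replicate 1, against 2.20 over all regions, and 2.09 in replicate 2, against 2.20. A match is a description of the letters and not evidence of binding.

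**Figure D4:**
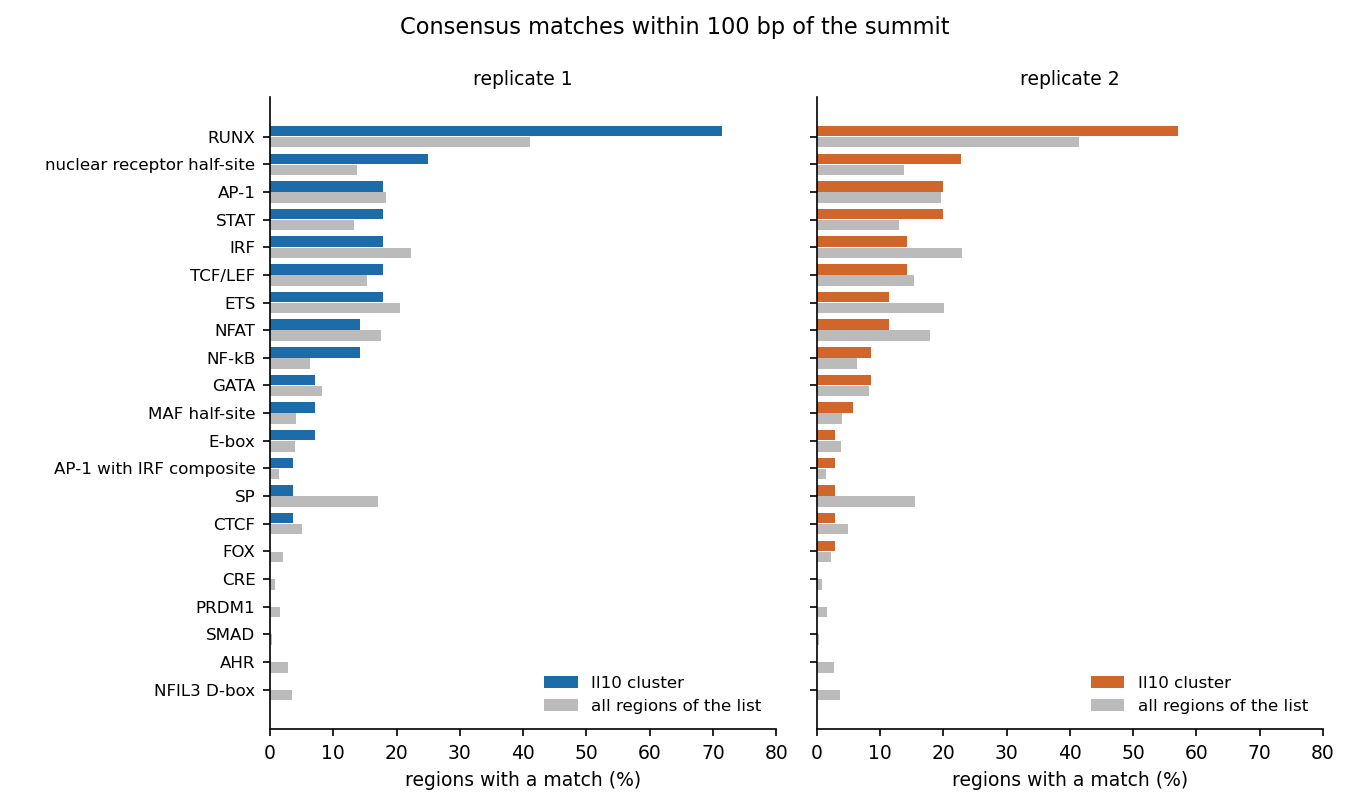
Share of regions (horizontal axis, %) with a consensus match within 100 bp of the summit for 21 motifs, cluster in colour and all regions of the same list in grey, replicate 1 left and replicate 2 right. RUNX has the highest share in the cluster, 71.4% and 57.1%, and SP is lower than in all regions of the lists in both libraries, 3.57% against 17.1% and 2.86% against 15.5%.

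Genes of the family's pathway elsewhere in the genome were mostly open at their promoters, 36 of 41 in both replicates, beside 64.4% of protein-coding genes. Of 4 other ligands, 1 was open: Ifnl2, a type III interferon, with signal 9.07 and 10.1 in replicates 1 and 2, while Il22, Iltifb and Ifnl3 had no promoter region. Of 7 receptor genes, 5 were open. Il10ra, the ligand-binding chain for interleukin-10, had signal 6.70 and 6.22 in replicates 1 and 2, its partner Il10rb 10.9 and 10.02, and Il20ra 11.01 and 10.4, while Il22ra1 and Il22ra2 had no promoter region.

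Among signalling genes all 7 were open, with signal 13.4 and 13.5 in replicates 1 and 2 at Jak1 and 10.02 and 9.43 at Tyk2, which encode kinases used by these receptors. All 15 factors reported to act on Il10 transcription were open, among them Maf at 7.24 and 7.16, Prdm1 at 13.0 and 12.3 and Batf at 9.58 and 9.94. All 9 p38 and MK2 pathway genes were open, among them the kinase genes Map2k3 at 6.29 and 6.84, Map2k6 at 16.1 and 15.6 and Mapk14, which encodes p38 alpha, at 13.6 and 13.6. An open promoter was the common state of genes in these lists and does not measure expression.

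The label of the cells was checked in the same way. Promoters were open for 5 of 5 regulatory T cell markers (Foxp3, Il2ra, Ctla4, Ikzf2 and Tnfrsf18) and 3 of 3 T cell markers, beside 64.4% of all protein-coding genes. They were open for 0 of 3 B cell markers, 1 of 4 myeloid markers (Cd14) and 1 of 3 keratinocyte markers (Krt1). By signal percentile the regulatory T cell markers ran from 1.4 (Tnfrsf18) to 55.9 (Ctla4) in replicate 1. In replicate 2 they ran from 3.0 to 63.0, for the same 2 genes. The T cell markers ran from 23.0 (Cd4) to 71.1 (Cd3e) in replicate 1 and from 25.9 to 73.5 in replicate 2. Cd14 was at 70.5 and 67.7 and Krt1 at 79.9 and 77.0, so open markers of other cell types ranked high. The Foxp3 promoter differed between the libraries, with signal 3.21 in replicate 1 and 6.53 in replicate 2, at percentiles 10.2 and 54.1. Its -log10 q was 26.1 and 198. Whether these values come from the same region in both libraries was not tested. The part of other cell types in the cluster's regions was not tested.

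The ends of the interval did not fall in a region. At the left end, the first region inside began 1.83 kb from the edge in replicate 1 and 1.89 kb in replicate 2, and the last outside was 11.02 kb away in both. At the right end, the last region inside ended 3.68 and 3.58 kb short of the edge, and the next outside began 1.17 and 1.12 kb beyond it, with signal 6.53 and 6.05.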

How the data were processed

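Each library came with 1 narrowPeak list on mm10, which per the deposited text files was derived from the alignments of that library only. Per the deposited lists, values per region are a score limited to 1000 (not used), a signal of unstated scale, -log10 p (not used), -log10 q and a summit offset. The lowest -log10 q was 1.00 in both lists. Not given in the sources used here: the aligner, the peak caller and any shift for the transposase cut. The lists hold no counts, so the depth is unknown and no interval that needs it is given.

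Regions were assigned to the interval by overlap, called shared at an overlap of 1 bp or more, and annotated with GENCODE M21 protein-coding genes. Start sites were those of all annotated transcripts of such a gene, coding or not. Densities and windows (at most 10% gap) used chromosomes 1 to 19, X and Y, leaving out 71 regions of replicate 1 and 84 of replicate 2. Consensus letters were searched on either strand up to 100 bp from each summit. Letters of the other motifs were GGAAGT for ETS, AGATAA for GATA factors, TTCNNNGAA for STAT, TGGAAA for NFAT, AANNGAAA for IRF, TGCTGAC for the MAF half-site, CTTTGA for TCF/LEF, TGTTTAC for FOX and CACGTG for the E-box; NF-kB, CTCF and the AP-1 with IRF composite, whose longer letters are degenerate, are given by name alone. CRE (TGACGTCA), PRDM1 (AGTGAAAG), SMAD (GTCTAGAC), AHR (TNGCGTG) and D-box (TTANNTAA) stood in no summit window of the cluster. Python 3.11.15, NumPy 2.4.6, SciPy 1.17.1, pysam 0.24.0 and matplotlib 3.10.9 were used. The overlap search and the percentile ranking were tested on simulated data.

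With 1 group, no test was made. The 5 genes, the lists and the motifs were chosen with earlier results of these data known. The text names every gene and region of the interval, list members with no promoter region, the first 3 members of each list, and the next region outside each end. A gene that this rule takes is not reported here. Ifnl3, Foxp3 and the other markers were named as list members. Alternatives were the flank, the stringency of the lists, the promoter window, the overlap, the motif window and each library alone.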

Additional observations from a re-analysis of the deposited data

How the results depend on the processing

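Of the alternatives run, the number of regions, the replicated regions, the open promoters and the pathway count stayed within 1.5 times their reported values. Density over the genome, 4.42 as the mean of both libraries, was 4.97 with the 50000 strongest regions of each list by signal and 5.28 with those by -log10 q. The median signal percentile, 57.1, was 55.0 with no flank, 53.2 with -log10 q of 5 or more, 43.7 with the 50000 strongest by signal and 42.6 by -log10 q; the last 2 lists lack weak regions by construction. The median -log10 q percentile, 66.8, was 61.9 and 60.4 in those same 2 lists. Motifs per region, 2.28 in summit windows, were 5.31 over whole regions, which are longer. The share of regions with a RUNX match, 64.3%, was 46.8% with C or T at the third base, which admits fewer letters.

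Taking either library alone, the count ranged from 28 to 35 regions, the density ratio from 4.21 to 4.63, open promoters from 3 to 4, the signal percentile from 55.7 to 58.6 and the -log10 q percentile from 64.3 to 69.3. Replicated regions need both libraries and have no such value, and for the pathway genes none was planned. Open promoters fell to 2 of 5 with a window of 0.5 kb and with the 50000 strongest by signal, both times without Il10. No paired analysis was possible because there is 1 group. Depth, which is unknown, limits what the absence of a region at the Il10 start, Il19 or Il20 can show.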
